A study of Desmophyllum pertusum with 36 samples.

Results

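At pH 7.6, 2 genotypes of a deep-water reef coral, Lophelia pertusa (Desmophyllum pertusum in the labels), were compared by RNA sequencing of polyps, colony 3 against colony 1. Each colony gave 1 library at week 2, 1 at week 4.5 and 1 at week 8.5, so that 3 libraries of colony 3 were set against 3 of colony 1 and paired by week. The members are the transcripts with 10 or more counts in at least 3 of these 6 libraries, which were 50757 of the 75743 transcripts in the table (67%). All 6 libraries came from fragments kept at pH 7.6, the lower of the study's pH levels. The whole series holds 18 libraries: colonies 1, 3 and 4, each at pH 7.6 and at pH 7.9, at the same 3 times. Time points 1 to 3 of the labels were taken as the weeks in the order of the design text.

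Lophelia pertusa builds reefs in deep, cold water and lives without symbiotic algae, so its polyps depend on captured food for energy and for the building of their aragonite skeleton. A colony grows by budding of polyps, and fragments cut from it carry the same genotype. Transcript levels in corals are known to differ between genotypes kept in the same conditions, which is why studies of acidification keep genotype as a term of the design. The transcripts of this table are numbered and not paired with gene names in the file, so no gene function is given for any of them.

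Each genotype is represented by 1 colony, and its 3 libraries are repeated samples of that colony over time. Whether fragments of a colony stood in separate tanks is not said in the labels. The p-values below therefore measure the spread between these libraries, and genotype cannot be told apart from anything else that belonged to a colony. The 6 libraries held 18448215 to 25651213 counts, and their means were 22278006 ± 3623140 in colony 1 and 22682093 ± 1502041 in colony 3 (SD, n = 3). The 50757 transcripts took all but 0.365% of these counts. Of them, 38899 had 10 or more counts in all 6 libraries, 1118 passed with 10 or more counts in the 3 libraries of colony 1 and in none of colony 3, and 1145 passed the other way round. Transcripts just inside the rule, with 10 or more counts in exactly 3 libraries, were 4069 with a median of 73 counts over the 6 libraries, and the 3390 just outside it, with exactly 2 such libraries, had a median of 47.

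The labels of the libraries need a remark before the results. Over the 50757 transcripts, Spearman's correlation of log2 CPM (read counts relative to the library's total, normalized by TMM) was 0.939 to 0.958 between libraries of colony 1 at pH 7.6, 0.878 to 0.899 between those of colony 3, and 0.804 to 0.877 between the colonies. Within pH 7.6, libraries of a colony were thus closer to each other than to the other colony, though for colony 3 narrowly (0.878 against 0.877). At pH 7.9, 5 of the 6 libraries of these colonies were at least as close to another colony. The exception was the week 2 library of colony 1, which correlated with colony 1 at pH 7.6 at 0.939 to 0.974 and with colony 3 at 0.813 to 0.865. The libraries labelled colony 3 of weeks 4.5 and 8.5 correlated with colony 1 at pH 7.6 at 0.938 to 0.966 and 0.92 to 0.954, and with colony 3 at 0.816 to 0.879 and 0.781 to 0.858. The library labelled colony 1 of week 4.5 correlated with colony 3 at pH 7.6 at 0.909 to 0.962 and with colony 1 at 0.836 to 0.864. The first range lay above the 0.878 to 0.899 among the colony 3 libraries at pH 7.6 themselves. That of week 8.5 was not clearly closer to either, with 0.873 to 0.936 for colony 3, 0.874 to 0.894 for colony 1 and 0.87 to 0.903 for colony 4. The week 2 library labelled colony 3 correlated with colony 4 at 0.916 to 0.979, with colony 3 at pH 7.6 at 0.808 to 0.878 and with colony 1 at 0.841 to 0.856. Whether the labels hold was not tested, at pH 7.9 or at pH 7.6. Every direction given here follows the labels of the pH 7.6 libraries as they stand.

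At pH 7.6, colony 3 had higher levels than colony 1 of 2767 transcripts and lower levels of 2510 (edgeR quasi-likelihood test with week as a block, adjusted p below 0.05). These 5277 calls are 10.4% of the transcripts tested, with 5.45% higher and 4.95% lower. In 5269 of the 5277, the colonies differed in the same direction at all 3 weeks, as against 43.3% of all transcripts tested. The 3 values of colony 3 did not overlap those of colony 1 in 4952 calls (93.8%), beside 13819 of all transcripts (27.2%). Both of these shares are used by the test itself and describe the calls.

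The differences that were called were large. Their median size was 2.54 on the log2 scale, beside 0.50 over all transcripts tested. No call was under 2-fold, 1572 lay between 2- and 4-fold, 2545 between 4- and 16-fold, and 1160 (22%) at 16-fold or more. Of these calls, 232 rest on a colony with 0 counts in all 3 libraries, for which a fitted fold depends on the added prior. With these set to a bound of 3 counts per library, 993 calls (18.8%) were at 16-fold or more and the median was 2.52. The smallest difference called was 1.17, and the median standard error (SE) over all transcripts was 0.46, so a transcript that was not called is not shown to be alike in the colonies. A further 516 transcripts differed by 4-fold or more without being called, with a median SE of 0.77.

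**Figure D1:**
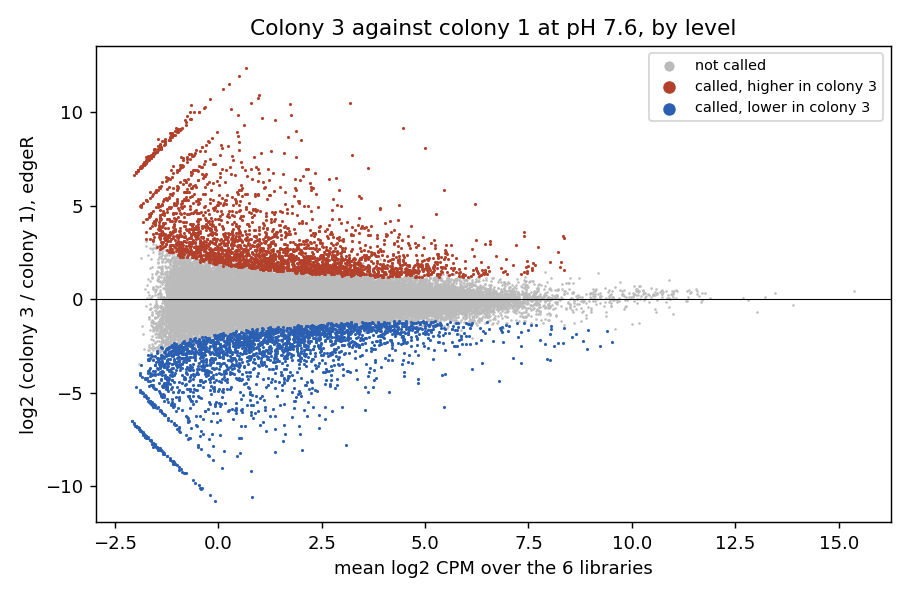
Each point is 1 of the 50757 transcripts tested, with its mean log2 CPM over the 6 libraries on the x axis and its log2 difference of colony 3 over colony 1 from edgeR on the y axis; called transcripts are coloured. Calls lie on both sides of 0 at most levels and are absent among the 100 most abundant transcripts, and the straight edges at the lower left are transcripts with few or no counts in one colony.

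To describe the calls by level, the transcripts were divided into 5 equal bins by mean log2 CPM. In the lowest bin, with a median of 0.671 CPM, 16.2% were called, and the share was 11.7%, 10.3%, 7.7% and 6.12% in the bins above. The median size of the called differences was 3.84 on the log2 scale in the lowest bin and 1.70 in the highest, where the median level was 31.7 CPM. These shares do not compare levels evenly, because the rule on counts lets in transcripts that reach 10 counts in 1 colony alone. Passing in this way favours transcripts that differ, though not all of them were called. Such transcripts were 2051 of those in the lowest bin, and 1368 of the 1645 calls there. None of the 100 most abundant transcripts was called by edgeR (0 calls), and 2 of them had an unadjusted p below 0.05, with 0.0669 as the smallest adjusted p. Together they made up 21.4 to 31.3% of each library. Their median difference was 0.30 in size, with a median SE of 0.46 and their largest was 1.61. Among the 1000 most abundant, 91 were called (9.1%), a share near the 10.4% of all transcripts.

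Which transcripts stood behind the largest differences was followed by a rule on size, which took the 2 highest and the 2 lowest log2 differences among calls with a mean log2 CPM of at least 1 and the same direction at all 3 weeks. All 4 were at or near 0 counts in 1 of the colonies. Transcript_12920 had 688, 918 and 331 counts in the libraries of colony 3 at weeks 2, 4.5 and 8.5 and 0 counts in the 3 libraries of colony 1. Its mean of 30.1 ± 15 CPM in colony 3 (SD, n = 3) was at least 224-fold higher than the floor of 3 counts per library in colony 1 (edgeR adjusted p = 1.02e-05). Transcript_31949 had 534, 429 and 477 counts in colony 3 and 0 in colony 1. Its 22 ± 4.41 CPM (SD, n = 3) was at least 163-fold higher (edgeR adjusted p = 1.12e-05). In both, every library of colony 3 lay far above every library of colony 1.

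Of the transcripts lower in colony 3, Transcript_46714 had 226, 179 and 250 counts in the libraries of colony 1 and 0 in those of colony 3. Its level in colony 1 was 9.84 ± 1.97 CPM (SD, n = 3), so colony 3 was at least 71.8-fold lower (edgeR adjusted p = 2.51e-05). Transcript_1754 had 533, 646 and 881 counts in colony 1 and 0, 0 and 1 in colony 3. The ratio of colony 1 to colony 3 from the summed 2060 and 1 counts was 2040, with a 95% exact interval of 365 to 80500 that covers counting error only (edgeR adjusted p = 4.02e-06). In colony 4 at pH 7.6 all 4 transcripts had 0 to 3 counts in each library, so each was abundant in a single colony among the 9 libraries at pH 7.6.

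**Figure D2:**
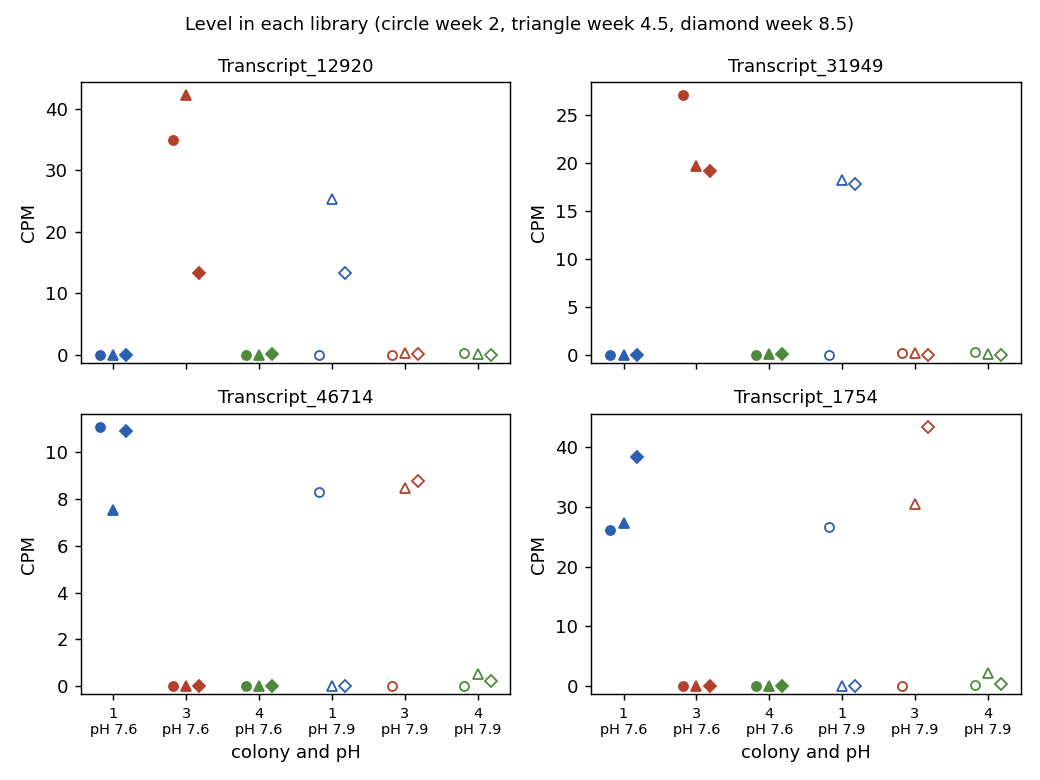
Level in CPM of the 4 named transcripts in all 18 libraries, by colony and pH on the x axis; filled symbols are pH 7.6 and open ones pH 7.9, and each symbol is 1 library. At pH 7.6 the libraries of colony 1 and colony 3 are separate in each panel, and at pH 7.9 the libraries of weeks 4.5 and 8.5 stand the other way round.

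In the abundant calls described here and below, which were chosen after their values were seen, the differences were in degree and not in presence. The most abundant transcript called higher in colony 3, at rank 113 of the 50757 by level, stood at 3710, 765 and 382 CPM in colony 3 at weeks 2, 4.5 and 8.5 and at 451, 57.9 and 38.7 CPM in colony 1. The colonies overlapped, since week 2 of colony 1 lay above week 8.5 of colony 3, but at each week colony 3 was higher. Its log2 difference was 3.36 ± 0.43 (SE, edgeR adjusted p = 0.000233). The second, at rank 117, went from 3390, 991 and 320 CPM in colony 3 to 511, 82.3 and 28.5 CPM in colony 1, a log2 difference of 3.28 ± 0.44 (SE, edgeR adjusted p = 0.000322). Both transcripts had their highest level at week 2 and their lowest at week 8.5 in each colony.

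The most abundant transcript called lower in colony 3, at rank 102, stood at 1320, 2350 and 1370 CPM in colony 1 and at 329, 552 and 202 CPM in colony 3. Its log2 difference was -2.28 ± 0.42 (SE, edgeR adjusted p = 0.00311). The next, at rank 123, stood at 1240, 1670 and 1350 CPM in colony 1 and 235, 395 and 171 CPM in colony 3, a log2 difference of -2.48 ± 0.42 (SE, edgeR adjusted p = 0.00178). Here the colonies did not overlap, and both transcripts were highest at week 4.5 in each colony.

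Presence in one colony and absence from the other was counted directly. With at least 20 counts in each library of one colony and 0 in each of the other, 64 transcripts were found in colony 3 and not in colony 1, and 49 in colony 1 and not in colony 3. With minima of 10, 50 and 100 counts there were 128, 14 and 6 of the first kind and 104, 15 and 4 of the second. All of them were among the calls, which the choice of these transcripts fixes. A count of 0 allows up to 3 counts in a library, and a colony whose alleles differ from the reference may lose counts, so that 0 counts do not show that a transcript was not made. In addition to the transcripts named for size, Transcript_8502 was the second of the 2 with the highest minimum in colony 1, with 216, 176 and 153 counts there and 0 in colony 3. Unlike the 4 above, it was present in colony 4, with 222, 96 and 168 counts at pH 7.6.

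The same transcripts were then counted in the 12 libraries that played no part in choosing them. The 64 of colony 3 had 10 or more counts for all 64 in the library labelled colony 1 of week 4.5 at pH 7.9 and for 60 in that of week 8.5, but for 0 in that of week 2. In the libraries labelled colony 3 at pH 7.9 they reached 10 counts in 0 cases at weeks 4.5 and 8.5 and in 24 at week 2. The 49 of colony 1 reached 10 counts in 48 cases in the week 2 library of colony 1 at pH 7.9, in 0 and 12 at weeks 4.5 and 8.5, and in 18, 48 and 48 in the libraries labelled colony 3. In colony 4, 21 to 25 of the 64 and 18 to 23 of the 49 reached 10 counts in each of its 6 libraries, whatever the pH.

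**Figure D3:**
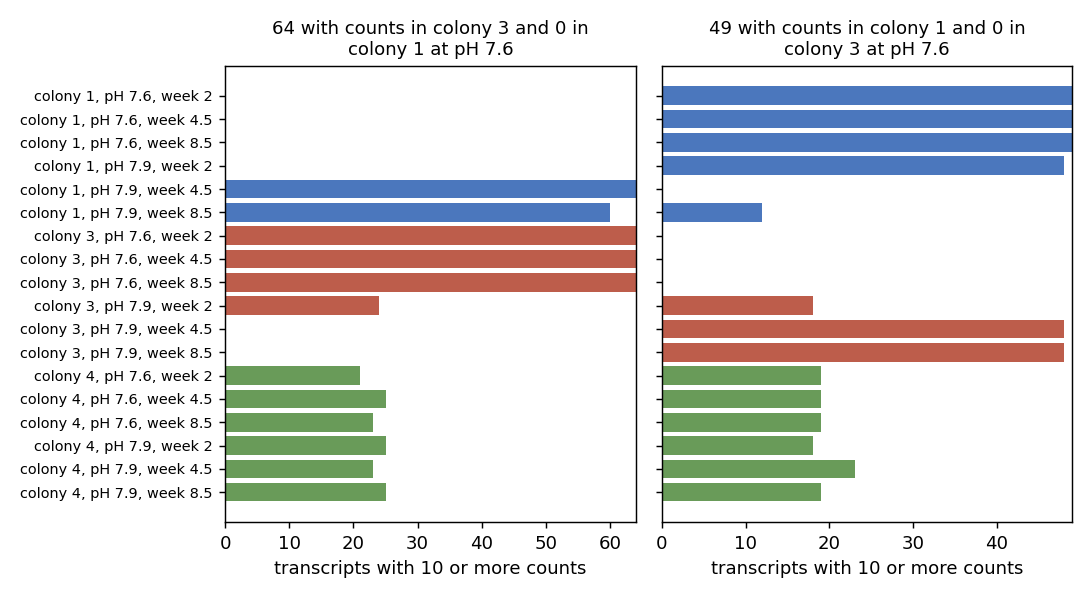
Bars give, for each of the 18 libraries, how many of the 64 transcripts found in colony 3 (left) and of the 49 found in colony 1 (right) had 10 or more counts; colours mark the labelled colony. The pH 7.6 bars of colonies 1 and 3 are fixed by the choice, while at weeks 4.5 and 8.5 of pH 7.9 the libraries labelled colony 1 carry 64 and 60 of the colony 3 transcripts and those labelled colony 3 carry 0.

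The weeks were compared to see whether the difference between the colonies lasted. Over the 5277 calls its median size, in the direction of the call, was 2.53, 2.22 and 2.41 on the log2 CPM scale at weeks 2, 4.5 and 8.5, beside 0.75, 0.38 and 0.56 in the direction of the fitted difference over all transcripts tested. The calls were chosen from these same weeks, so these medians only describe them. Across the 50757 transcripts the difference at week 2 correlated with that at week 4.5 at r = 0.65 and with that at week 8.5 at r = 0.508, and those of weeks 4.5 and 8.5 at r = 0.643. These are descriptions across transcripts, which are not independent, and each week's difference uses its own 2 libraries. Differences of 4-fold or more were seen in 7723 transcripts at week 2, 3713 at week 4.5 and 5506 at week 8.5. In 1958 the difference was 4-fold or more in the same direction at all 3 weeks, with 1011 higher and 947 lower in colony 3. In 81 transcripts, colony 3 was at least 4-fold higher at one week and at least 4-fold lower at another. With 1 library per colony and week, a change of the difference over time could not be tested.

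Calls made from 2 of the weeks were then looked at in the week left out. The 3351 calls without week 2 (7.16% of those tested) had the same direction at week 2 in 93% of cases, with a median of 1.88 on the log2 scale there. Of the 1821 calls without week 4.5 (4.02%), 97.6% had the same direction at that week, with a median of 2.15. Of the 2339 without week 8.5 (5.11%), 92.6% had the same direction, with a median of 1.93. Over all transcripts tested in these fits, the share with the same direction in the week left out was 62.4%, 64.9% and 59.6%. The number of calls fell with each week left out, and of those that were made, 2672, 1676 and 1990 were also among the 5277. Fewer transcripts were tested there too, since 3 of only 4 libraries had to reach 10 counts. Without the block and without 1 library of colony 1 at a time, the calls were 2065, 1830 and 2053 for weeks 2, 4.5 and 8.5, and without 1 library of colony 3 they were 2940, 3711 and 3210. Higher calls made the larger part without a colony 1 library, with 1325, 1223 and 1333, and lower calls without a colony 3 library, with 1627, 1991 and 1745.

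The libraries of colony 3 differed more among themselves than those of colony 1. The median SD of log2 CPM over the 3 weeks was 0.57 in colony 3 and 0.32 in colony 1, and it was larger in colony 3 for 38273 transcripts (75.4%). The value farthest from the median of colony 3 was that of week 2, 4.5 and 8.5 in 36.1%, 30% and 34% of transcripts. By this measure alone, no single library of colony 3 stood apart. The numbers of transcripts with any counts in these libraries were 64623, 68376 and 64559, highest at week 4.5. Of the whole sum of squares of log2 CPM over the 6 libraries, 53.2% lay between the colonies, 26.4% between the weeks and 20.5% in neither. A share between the weeks also arises from spread that the colonies do not have in common, so it does not give the size of a common week effect.

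Colony 4 at pH 7.6 served as a scale. In fits of the same form, colonies 4 and 1 differed in 13055 transcripts (25.4% of those tested) and colonies 4 and 3 in 4257 (8.27%), beside the 10.4% between colonies 3 and 1. The 3 comparisons share libraries, and the common dispersion was 0.0467 for colonies 4 and 1 but 0.142 and 0.159 in the 2 comparisons that hold colony 3, so the counts of calls do not order the distances between the colonies. Without the replicate block, colonies 4 and 1 differed in 8376 transcripts. Over the 5277 transcripts that separated colonies 3 and 1, the 3 values of colony 4 overlapped those of colony 3 alone in 1868 (35.4%), those of colony 1 alone in 1431 (27.1%) and both in 534 (10.1%). Over all transcripts tested these shares were 19.5%, 11.5% and 55.7%. The values of colony 3 spread more widely than those of colony 1, which by itself makes an overlap with colony 3 more frequent. Colony 4 lay between the colonies in 852 (16.1%), above both in 266 (5.04%) and below both in 326 (6.18%), beside 2.1%, 4.99% and 6.18% of all transcripts.

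By the labels, the same pair of colonies was compared at pH 7.9, in libraries that the first comparison did not use. At week 2, 79.4% of the 5277 transcripts differed in the same direction as at pH 7.6, and 63.5% of all 50757 did. The median of the 5277 was 1.22 on the log2 CPM scale in that direction. The library labelled colony 3 at that week correlated with colony 4 at 0.916 to 0.979, above its 0.808 to 0.878 with colony 3 at pH 7.6. At week 4.5, 98.2% of the 5277 differed in the opposite direction, with a median of -2.09, and at week 8.5 94% did, with a median of -1.64. Over all transcripts the opposite direction was seen in 69.5% and 67.6% at these weeks. The reversal held for those higher in colony 3 at pH 7.6, of which 98.2% and 97.9% were lower at weeks 4.5 and 8.5 of pH 7.9. Of those lower in colony 3 at pH 7.6, 98.2% and 89.7% were higher.

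**Figure D4:**
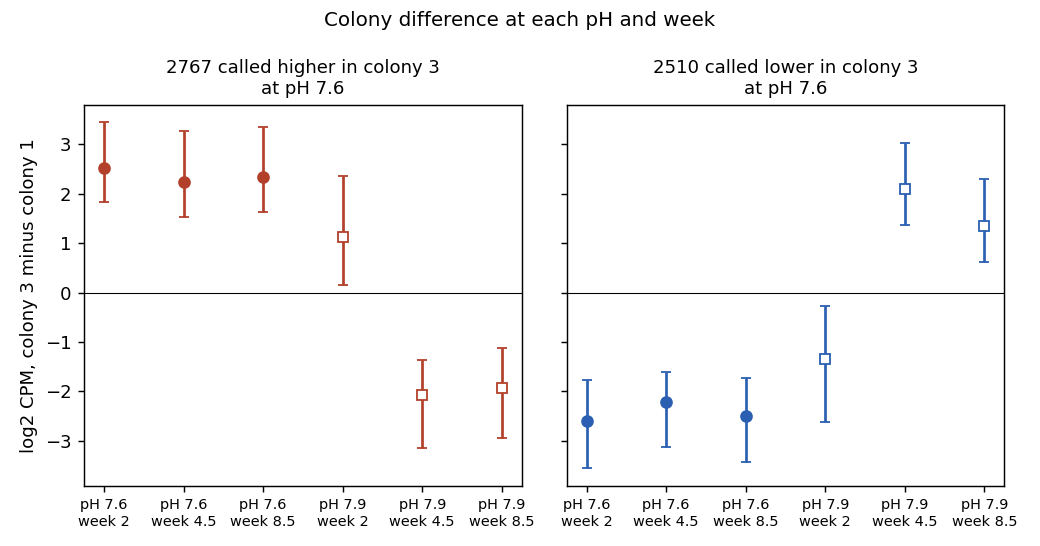
Points are medians and bars the range between the lower and upper quartiles of the difference in log2 CPM, colony 3 minus colony 1, over the 2767 transcripts called higher (left) and the 2510 called lower (right) in colony 3 at pH 7.6; filled points are pH 7.6, which chose the transcripts, and open ones pH 7.9. The medians keep their sign at week 2 of pH 7.9, where the library labelled colony 3 was closest to colony 4, and turn at weeks 4.5 and 8.5.

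The transcripts named above showed the reversal at weeks 4.5 and 8.5, while at week 2 Transcript_12920 had 0 counts in both colonies and Transcript_31949 at most 3. Transcript_12920 had 0, 524 and 320 counts in the libraries labelled colony 1 of weeks 2, 4.5 and 8.5 at pH 7.9, and 0, 6 and 1 in those labelled colony 3. Transcript_31949 had 0, 378 and 427 counts in colony 1 and 3, 4 and 0 in colony 3. Transcript_46714 had 153, 0 and 0 counts in colony 1 and 0, 153 and 175 in colony 3. Transcript_1754 had 490, 0 and 2 counts in colony 1 and 0, 548 and 864 in colony 3. At weeks 4.5 and 8.5 each of the 4 thus stood in the colony in which it was missing at pH 7.6. Transcript_46714 and Transcript_1754 were not called in the test of the difference between pH levels given below (edgeR adjusted p = 0.134 and 0.107).

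Tested over its 3 weeks, the comparison at pH 7.9 gave 0 calls in edgeR and 0 in limma-voom, with 3916 transcripts at an unadjusted p below 0.05 in edgeR, where DESeq2 called 259. Without week 2 it gave 4346 calls (9.4% of those tested). Among the 45661 transcripts tested in both, 2116 were called at both pH, which is 54.5% of the 3882 called at pH 7.6 and 48.8% of the 4339 called at pH 7.9, beside a share of 9.5% called at pH 7.9 among all of them. The direction was opposite in 2114 of the 2116 and the same in 2.

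The position of each library between the colonies gives the same pattern on another scale. For every called transcript, the mean log2 CPM of colony 1 at pH 7.6 was set to 0 and that of colony 3 to 1, which fixes the medians of those 6 libraries near 0 and 1. The libraries labelled colony 1 at pH 7.9 had medians of 0.01, 0.96 and 0.73 at weeks 2, 4.5 and 8.5. Those labelled colony 3 had 0.60, 0.07 and 0.00. The 6 libraries of colony 4 had 0.49 to 0.60 with wide quartiles, and the week 2 library labelled colony 3 at pH 7.9 had quartiles of 0.14 and 0.98, next to 0.16 and 0.98 in colony 4 of the same pH and week.

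**Figure D5:**
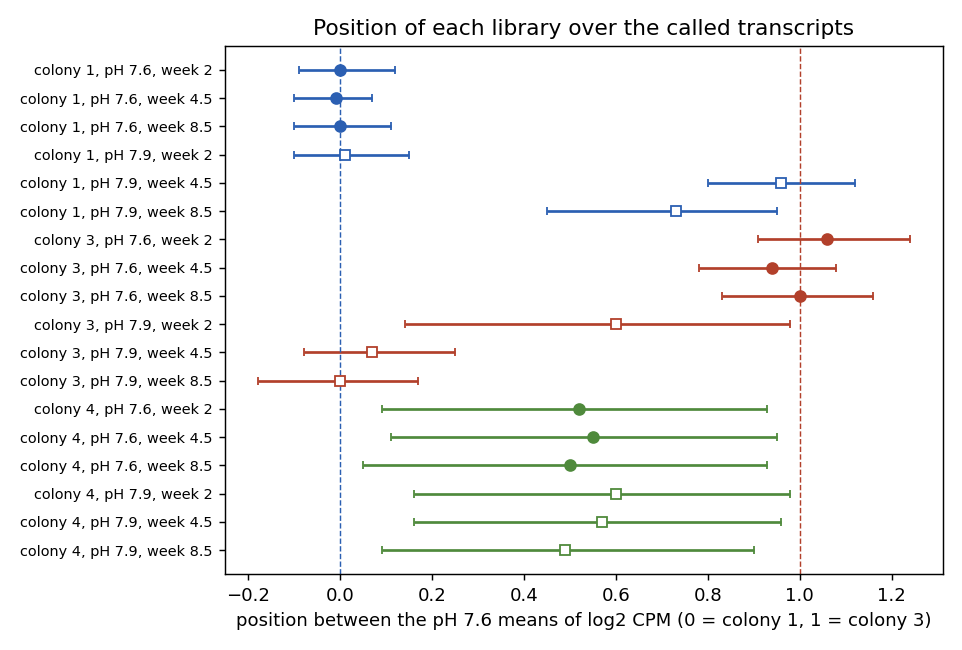
Position of the 18 libraries over the 5277 called transcripts, as the median with the lower and upper quartiles, on a scale where 0 and 1 are the pH 7.6 means of colonies 1 and 3; filled points are pH 7.6 and open ones pH 7.9. The libraries labelled colony 1 of weeks 4.5 and 8.5 at pH 7.9 lie at 0.96 and 0.73, and those labelled colony 3 of these weeks at 0.07 and 0.00.

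The called transcripts were also described by their share of all counts, which their choice fixes at pH 7.6. Those higher in colony 3 held 6.78, 5.27 and 5.12% of the counts of colony 3 at pH 7.6 and 1.87, 1.09 and 1.05% of those of colony 1, at weeks 2, 4.5 and 8.5. Those lower in colony 3 held 0.991, 1.71 and 1.3% in colony 3 and 5.62, 5.89 and 5.61% in colony 1. At pH 7.9 the first group held 1.64, 6.98 and 3.91% in the libraries labelled colony 1 and 3.71, 1.73 and 1.09% in those labelled colony 3. The second group held 5.35, 1.46 and 2.6% in colony 1 and 3.54, 4.98 and 5.59% in colony 3. By the labels, both groups thus kept the pH 7.6 order of the colonies at week 2 of pH 7.9 and had the reverse order at weeks 4.5 and 8.5.

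Whether the difference between the colonies depended on pH was tested in the 12 libraries of colonies 1 and 3. In 1274 transcripts (2.34% of 54472) it did by edgeR's quasi-likelihood test, with 817 (1.5%) in which colony 3 over colony 1 was higher at pH 7.6 than at pH 7.9 and 457 (0.839%) in which it was lower. Without the replicate block the count was 2387. The count was 0 without week 4.5 and 0 without week 8.5, with 5962 and 4049 transcripts at an unadjusted p below 0.05 in edgeR. Without week 2 it was 9030. Each of these fits held fewer libraries, and the cause of the shifts was not tested. DESeq2 called 6170. Over the whole table, 3 of the 4 libraries of weeks 4.5 and 8.5 at pH 7.9 were closer to the other colony. The remaining one was not clearly closer to its own, and the week 2 library labelled colony 3 was closest to colony 4. An effect of pH on the colony difference and a mismatch of library and label therefore cannot be told apart in these data.

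The rule on size named Transcript_12920 and 3 further transcripts for this test. None of these 4 calls held without week 4.5 or without week 8.5, where the adjusted p was 0.363 to 0.55, and Transcript_12920 and Transcript_81441 also missed the threshold in limma-voom, at 0.0649 and 0.0615. Transcript_76043 had 142, 88 and 156 counts in colony 3 and 0 in colony 1 at pH 7.6, but 0 in colony 3 and 0, 124 and 63 in colony 1 at pH 7.9 (edgeR adjusted p = 0.0423). Transcript_61856 had 184, 219 and 266 counts in colony 1 and 1, 1 and 0 in colony 3 at pH 7.6. At pH 7.9 it had 156, 5 and 3 in colony 1 and 171, 141 and 187 in colony 3 (edgeR adjusted p = 0.03). Transcript_81441 had 165, 180 and 126 counts in colony 1 and 0, 0 and 1 in colony 3 at pH 7.6, and 155, 5 and 0 in colony 1 and 83, 86 and 283 in colony 3 at pH 7.9 (edgeR adjusted p = 0.048). Transcript_61856 was present in all 6 libraries of colony 4, at 154 to 261 counts, while the libraries of colony 3 at pH 7.6 and those labelled colony 1 of weeks 4.5 and 8.5 at pH 7.9 had at most 5 counts of it.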

How the data were processed

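Polyp RNA was extracted with a Qiagen kit and read from a single end by Illumina HiSeq, per the labels' protocols. The authors deposited raw read counts, 1 per transcript and lane, in 36 columns. FastQC, cutadapt 1.15, Trimmomatic 0.36 and DESeq2 are named, without their roles, in the submitters' processing notes. No aligner, counter or reference is given in the sources used here, so reads shared by near-identical transcripts or alleles may have been split or dropped.

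The 2 lanes of a library were summed. Tests were quasi-likelihood F tests of edgeR 4.0.16 (R 4.3.3, TMM normalization, Benjamini-Hochberg adjustment over all transcripts tested, threshold 0.05), each fitted to the libraries of the groups compared, with week as a block. Transcripts needed 10 or more counts in at least 3 of those libraries. TMM factors of the 6 libraries compared at pH 7.6 ran from 0.83 to 1.1. The block comes from the labels, since a time point is a sampling shared by the colonies. The deviations of same-week libraries from their colony means correlated at 0.0272, 0.331 and 0.108 at weeks 2, 4.5 and 8.5. SE are the log2 difference divided by the square root of F. CPM used TMM factors of all 18 libraries, and log2 CPM a prior count of 2. Floors of 3 counts are per library and, like intervals, cover counting error only. The alternatives were DESeq2 1.42.0, limma-voom (limma 3.58.1), other size factors, filters and lanes, a fit without the block, a fit of all libraries, and leaving out weeks or libraries. The procedure was tested on simulated data with the same spread in both colonies, no effect of week and a dispersion below the 0.142 fitted here. Fewer transcripts were changed in those data than were called here. That test therefore does not cover the wider spread of colony 3 or changes in as many transcripts. At most 2 transcripts in each direction were named per comparison, as described in the results. They were calls with 1 direction at every week and an average level of at least 1 on the log2 CPM scale. For presence, they had the highest minimum count in 1 colony with 0 counts in the other. The abundant transcripts described by rank were chosen after their values were seen. The comparison, the rules and the lists were chosen with earlier results of these data known. Gene lists could not be matched to numbered transcripts.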

Additional observations from a re-analysis of the deposited data

Results flagged for a closer look

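The difference between colonies 3 and 1 was itself different at pH 7.6 and at pH 7.9 in 1274 transcripts by edgeR's test of that difference. Of the transcripts named for size, Transcript_12920 (edgeR adjusted p of the difference between pH levels = 0.0286) and Transcript_31949 (edgeR adjusted p = 0.0307) were higher in colony 3 at pH 7.6 at all 3 weeks and higher in colony 1 at weeks 4.5 and 8.5 of pH 7.9. Transcript_76043 (edgeR adjusted p = 0.0423) had the same pattern, and Transcript_61856 (edgeR adjusted p = 0.03) and Transcript_81441 (edgeR adjusted p = 0.048) had the opposite one. Transcript_46714 and Transcript_1754, also named for size at pH 7.6, were not called in this test (edgeR adjusted p = 0.134 and 0.107). Without week 4.5 or week 8.5, the adjusted p was 0.363 to 0.55 for Transcript_12920, Transcript_76043, Transcript_61856 and Transcript_81441. The position of the libraries behind these values over the whole table is given with the results, and its part in the difference was not tested. As stated there, an effect of pH on the colony difference and a mismatch of library and label cannot be told apart in these data.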

How the results depend on the processing

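The call of 5277 transcripts between colonies 3 and 1 at pH 7.6 stayed within 1.5 times under DESeq2 (6426), limma-voom (5612), the size factors of DESeq2 in edgeR (5270), no filter on low counts (7892), either lane alone (4323 and 4508), all 18 libraries in the fit (4777) and no replicate block (4788). It was 2864 with 10 counts required in every library, where 38899 transcripts were tested, 1821 to 3351 without 1 week, and, with neither the block nor 1 library, 2065, 1830 and 2053 (colony 1) and 2940, 3711 and 3210 (colony 3) at weeks 2, 4.5 and 8.5. At pH 7.9 the count was 0 in edgeR and limma-voom under all settings run with week 2, 0 without week 4.5 or 8.5, 259 with DESeq2 and 4346 without week 2. The difference between pH levels, 1274 calls, became 2387 with no replicate block, 6170 with DESeq2, 385 with 10 counts in every library, 6046 with all 18 libraries in the fit, and 0 to 9030 without 1 week. Colonies 4 and 1 at pH 7.6, 13055 calls, gave 8376 with no replicate block, 4000 with all 18 libraries and 5672 to 8309 without 1 week. Colonies 4 and 3, 4257 calls, gave 6898 with no filter, 2170 with 10 counts in every library and 1532 to 3991 without 1 week. Fewer libraries or transcripts entered some of these fits, and the cause of the shifts was not tested. Among the 99 alternative values of the named transcripts, 87 kept their direction and their side of the threshold, 12 kept the direction and missed the threshold, and 0 reversed. Settings in which a named transcript failed the filter gave no value. For the comparison at pH 7.6 these were 10 counts in every library, any week left out, and any library left out of the colony with its counts. For the difference between pH levels it was 10 counts in every library. Of the 12, 11 were calls of a difference between pH levels, with an adjusted p of 0.363 to 0.55 without week 4.5 or 8.5 for each of the 4 transcripts, 0.0649 and 0.0615 in limma-voom for Transcript_12920 and Transcript_81441, and 0.0662 in lane L001 alone for Transcript_81441. The other was Transcript_46714 at pH 7.6, at 0.064 with all 18 libraries in the fit (range over the alternatives 5.99e-29 to 0.064). The counts of 64 and 49 transcripts present in 1 colony were 96 to 129 and 78 to 95 without 1 week, a setting added after the data had been seen.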

Other observations

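The library labelled colony 1 of week 8.5 at pH 7.9 carried transcripts of both kinds. It had 10 or more counts for 60 of the 64 transcripts found in colony 3 and not in colony 1 at pH 7.6, and for 12 of the 49 of the reverse kind, of which 23 were at 0. Over the 5277 called transcripts, 41.6% lay within 0.25 of the mean of colony 3 on the scale from colony 1 to colony 3, 11.6% within 0.25 of colony 1 and 39.6% between. In the library of the same label at week 4.5, 67.4% lay near colony 3, 1.25% near colony 1 and 17.9% between.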
